A study of Homo sapiens with 24 samples.

Results

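The genes examined were 9 genes of MHC class I antigen presentation: HLA-B, HLA-C, HLA-E, HLA-F, B2M, TAP1, TAPBP, PSMB9 and NLRC5. They were taken as the rows of the raw count table whose Ensembl identifier carries one of these symbols, which gave 9 of the 60617 genes in the table. All 9 passed the filter on low counts and were among the 15476 genes tested. On GRCh38, 7 of the 9 lie on chromosome 6, in the region of the major histocompatibility complex between positions 29722775 and 33314284, while B2M lies on chromosome 15 (44711358 to 44718851, plus strand) and NLRC5 on chromosome 16 (56989485 to 57083531, plus strand).

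MHC class I molecules show short peptides from the inside of a cell to CD8 T cells. A polymorphic or conserved heavy chain, such as HLA-B, HLA-C, HLA-E or HLA-F, pairs with β2-microglobulin, the product of B2M, and is held ready for a peptide by tapasin, the product of TAPBP, at the transporter to which TAP1 contributes a subunit. PSMB9 is a catalytic subunit of the immunoproteasome, which cuts proteins into peptides, and NLRC5 is a transcriptional coactivator of class I genes. Tumours of squamous epithelium are known to lose class I presentation in many cases, and interferon and NF-κB are known inducers of these genes.

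RNA-seq had been made from MDA686TU (686Tu) cells, an established squamous carcinoma line of the head and neck, in 4 groups of 6 libraries. The groups were an untreated control, EGCG (epigallocatechin gallate, the main green tea catechin) at 40 µM, resveratrol (a polyphenol of grapes) at 15 µM, and both agents together at these doses, each harvested after 24 h. The solvent was DMSO for the resveratrol stock and water for EGCG. The sources used here do not say whether the control received DMSO, so resveratrol and its solvent cannot be told apart. A single tumour line without immune cells is a limited model of presentation to T cells. The labels call the 6 libraries of a group replicates and do not name separate cultures, so the p-values measure the spread between these libraries, which may be technical. Bulk RNA also does not separate fewer cells with a transcript from less of it per cell.

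Library totals ran from 7034872 to 11735574 counts. All 10 squamous epithelial marker genes, keratins, TP63, desmoglein and others, were tested. Their summed normalized counts were 161208 to 170720 in the control, 154669 to 174450 under EGCG, 134266 to 142333 under resveratrol and 132954 to 144812 under the combination. The keratins KRT5, KRT14, KRT6A and KRT17, which held most of these counts, were called lower with resveratrol and with the combination. CDH1 (log2 fold change 0.29 and 0.43) and DSG3 (0.42 and 0.44) were called higher. Of the 10, 2 were called higher and 5 lower with resveratrol, against 28.9% and 28% of tested genes. With the combination 3 were higher and 4 lower, against 29.9% each. The part of these markers in the results below was not tested. None of 9 leukocyte marker genes passed the filter, with sums of 4.08 to 15.3. PTPRC, the pan-leukocyte marker CD45, had at most 1 raw count in a library, and no gene of the list had more than 11. None of 10 MHC class II genes passed either. Of 6 fibroblast markers 2 were tested, COL1A1 and COL1A2. The summed fibroblast markers ran from 898 to 1114 with EGCG, 1117 to 1349 in the control, 1314 to 1559 with resveratrol and 1526 to 1755 with the combination. This sum was almost all COL1A1, with a mean of 1182 normalized counts in the control beside 19.5 for COL1A2. The part of these markers in the results below was not tested. The share of mitochondrial counts was 0.249% to 0.326% in replicates 1 to 3 of the groups and 0.448% to 0.775% in replicates 4 to 6, so values are also given within these sets, which the labels do not call batches. Between the sets 957 genes (6.18%) differed, among them TAP1 (log2 difference -0.09 in replicates 4 to 6, edgeR adjusted p = 0.0774), while the other 8 genes did not pass the limits.

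The promoters of 7 of the 9 genes were matched to RefSeq promoter sequences (GRCh38.p14), all but HLA-E and NLRC5. In each, 250 bases before and 50 bases after the transcription start were searched on both strands for letters that known class I regulators read. These were GAAA, any 2 bases and GAAA, the interferon-stimulated response element; TTCNNNGAA for STAT dimers; TGACGTCA for cAMP response element binding proteins; and CCAAT for NF-Y. For NF-κB they were GGG, any 2 bases and then TTCCC or TTTCC. No promoter held both NF-κB forms, and no match to a motif overlapped a match to another. Shown here are the 250 bases before the start, 5′ to 3′ on the gene's own strand, for the heavy chain HLA-B with its NF-κB letters and for B2M, TAP1 and TAPBP, which hold both interferon and NF-κB letters. Capitals mark every match, and ATTGG, the TTTC forms of TAP1 and the NF-κB letters of B2M are matches on the opposite strand.
HLA-B, chr6:31357180-31357429, minus strand: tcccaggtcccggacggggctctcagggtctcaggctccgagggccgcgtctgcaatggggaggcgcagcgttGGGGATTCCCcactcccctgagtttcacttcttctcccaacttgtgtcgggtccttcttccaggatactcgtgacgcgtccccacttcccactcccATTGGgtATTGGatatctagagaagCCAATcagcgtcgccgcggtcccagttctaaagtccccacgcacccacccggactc
B2M, chr15:44711267-44711516, plus strand: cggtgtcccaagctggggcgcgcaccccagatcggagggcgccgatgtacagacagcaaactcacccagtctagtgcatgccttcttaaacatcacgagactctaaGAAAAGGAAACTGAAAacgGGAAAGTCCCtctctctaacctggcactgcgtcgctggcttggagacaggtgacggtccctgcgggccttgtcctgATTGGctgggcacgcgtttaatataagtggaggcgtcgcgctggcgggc
TAP1, chr6:32853705-32853954, minus strand: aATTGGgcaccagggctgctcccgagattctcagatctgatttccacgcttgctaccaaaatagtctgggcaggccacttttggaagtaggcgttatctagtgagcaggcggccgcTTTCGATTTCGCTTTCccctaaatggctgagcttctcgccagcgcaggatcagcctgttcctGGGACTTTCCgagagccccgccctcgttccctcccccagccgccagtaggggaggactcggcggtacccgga
TAPBP, chr6:33314079-33314328, minus strand: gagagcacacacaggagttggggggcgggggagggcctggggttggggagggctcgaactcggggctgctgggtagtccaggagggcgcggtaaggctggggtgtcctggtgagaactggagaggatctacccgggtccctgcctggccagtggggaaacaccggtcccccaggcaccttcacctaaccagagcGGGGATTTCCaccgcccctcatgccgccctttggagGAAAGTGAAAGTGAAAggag

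These windows precede RefSeq starts, and the gene spans of GENCODE v44 reach into the 4 shown because that annotation also holds transcripts that begin further upstream. The interferon element was present in 4 of the 7 promoters, against 3.65% of the 27305 RefSeq promoters searched. HLA-F carried 1 match at -156 to -147 from the start. The capitals of B2M from -144 to -129, of TAP1 from -134 to -119 and of TAPBP from -20 to -5 each hold 2 overlapping matches, which give 1 run of 16 letters. NF-κB letters of the TTTCC form stood in B2M (-125 to -116), TAP1 (-72 to -63) and TAPBP (-56 to -47), against 1.92% of all promoters, and those of the TTCCC form stood in HLA-B alone of the 7 (-177 to -168), against 2.15%. CCAAT was found in 6 of the 7, the exception being TAPBP, and in 35.7% of all promoters. TTCNNNGAA occurred for TAP1 alone, in a further window 32852712 to 32853011 that belongs to a second start. The background for TTCNNNGAA was 7.88% of promoters, with 1 window per gene. Counted in that way, none of the 7 held it. TGACGTCA was in none of the 7 and in 1.98% of all. A match describes letters and does not show that a factor was bound.

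**Figure D1:**
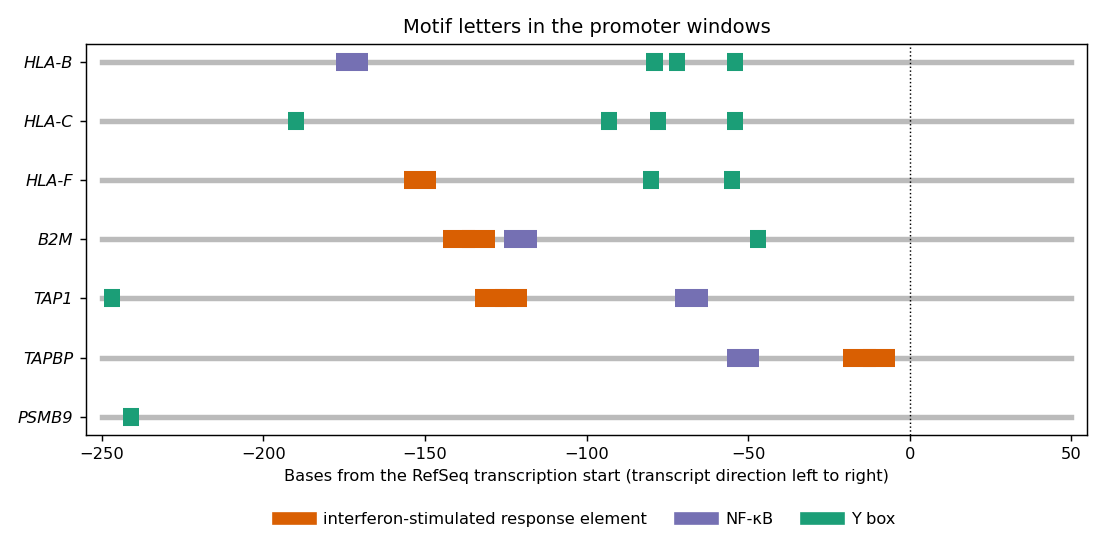
Position of motif letters in 7 promoter windows. The horizontal axis gives bases from the RefSeq transcription start, negative before it; boxes mark the interferon-stimulated response element, NF-κB and Y box (CCAAT) letters on either strand. Boxes for interferon letters stand in HLA-F, B2M, TAP1 and TAPBP, with those of TAPBP nearest to the start at -20 to -5.

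TAP1 and PSMB9 are head to head. TAP1 (chromosome 6, 32845209 to 32853816, minus strand) and PSMB9 (32844136 to 32859851, plus strand) overlap in the annotation, their RefSeq starts are 488 bases apart, and their promoter windows share 13 bases. PSMB8 on the minus strand and the non-coding PSMB8-AS1 on the plus strand also overlap PSMB9. The libraries were stranded, but the strand setting of the counting was not given in the sources used here, so counts of these overlapping genes are of uncertain origin. Class I heavy chains resemble one another: of the 50-base stretches of each main transcript, 6.76% of HLA-C, 6.16% of HLA-E, 2.56% of HLA-B and 1.89% of HLA-F also occurred in another gene, mostly other heavy chains or their pseudogenes. The share was 7.09% for TAPBP and 1.18% for TAP1, and 0 for B2M, PSMB9 and NLRC5. How reads with several matches were counted was not given.

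Per length, the light chain was the most abundant of these transcripts and the coactivator the least. Mean FPKM in the untreated control was 61.0 for B2M, 43.6 for HLA-E, 21.4 for HLA-C, 14.8 for TAPBP, 10.8 for HLA-B, 9.76 for TAP1, 3.15 for PSMB9, 1.71 for HLA-F and 0.279 for NLRC5. Of the neighbours in this order, the ranges over 6 libraries overlapped for HLA-B (9.96 to 11.8) and TAP1 (8.95 to 10.4), and those of the other neighbours were separate. Among the summed reads of the 5 heavy chains HLA-B, HLA-C, HLA-E, HLA-F and HLA-G, HLA-E held a median of 56.9% in the control and 56.8% with the combination.

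The classical heavy chains HLA-B and HLA-C, which present peptides to CD8 T cells, rose with resveratrol and with the combination, each relative to the untreated control. HLA-B (ENSG00000234745, chromosome 6, 31353872 to 31367067, minus strand) had normalized counts, which are raw counts divided by a size factor per library, of 265 to 315 in the control (median 286), 289 to 376 with EGCG (327), 336 to 380.4 with resveratrol (366) and 356 to 425 with the combination (409). All resveratrol and combination libraries lay above all control libraries, and those of EGCG overlapped both the control and resveratrol. Against the control HLA-B had a log2 fold change of 0.20 (SE 0.057) with EGCG, 0.33 (SE 0.056) with resveratrol and 0.47 (SE 0.056) with the combination, with edgeR adjusted p of 0.0713, 4.99e-06 and 5.39e-09. HLA-C (ENSG00000204525, chromosome 6, 31268749 to 31272130, minus strand) had 421 to 538 normalized counts in the control (median 461), 490.1 to 531 with EGCG (502), 558 to 602 with resveratrol (589) and 598 to 672 with the combination (635). The EGCG libraries of HLA-C stood inside the range of the control, and the resveratrol and combination libraries stood above it. HLA-C had a log2 fold change of 0.13 (SE 0.049, edgeR adjusted p = 0.294) with EGCG, 0.33 (SE 0.048, 4.09e-07) with resveratrol and 0.45 (SE 0.048, 3.99e-10) with the combination.

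HLA-E and HLA-F are non-classical heavy chains, and HLA-E is the ligand of the inhibitory receptor CD94/NKG2A of natural killer cells. HLA-E (ENSG00000204592, chromosome 6, 30489509 to 30494194, plus strand) had 1087 to 1176 normalized counts in the control (median 1097), 1111 to 1281 with EGCG (1203), 1298 to 1370 with resveratrol (1334) and 1405 to 1609 with the combination (1483). For HLA-E the 3 sets control, resveratrol and combination did not overlap at any point, and EGCG reached from the control up to just under resveratrol. Its log2 fold change was 0.11 (SE 0.036, edgeR adjusted p = 0.169) with EGCG, 0.27 (SE 0.036, 1e-07) with resveratrol and 0.43 (SE 0.036, 1.18e-12) with the combination. HLA-F (ENSG00000204642, chromosome 6, 29722775 to 29738528, plus strand) had 51.4 to 80.3 normalized counts in the control (median 64.8), 59.1 to 70.4 with EGCG (65.7), 65.0 to 84.0 with resveratrol (71.1) and 77.5 to 101 with the combination (88.6). The control libraries of HLA-F spread over the ranges of EGCG and most of resveratrol, and the highest of them overlapped the combination. HLA-F passed the limits with the combination alone (log2 fold change 0.47, SE 0.097, edgeR adjusted p = 9.89e-05), and was 0.03 (SE 0.10, 0.968) with EGCG and 0.17 (SE 0.099, 0.14) with resveratrol. Without control replicate 3 or without control replicate 5, HLA-F was also called with resveratrol, at adjusted p of 0.0375 and 0.0841.

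Summed over these 5 heavy chains, class I reads were 225 ± 6.66 CPM in the control and 245 ± 6.49 under EGCG (SD, n = 6 each). They were 274 ± 3.07 under resveratrol and 305 ± 13.5 under the combination. CPM here are counts scaled to library size times the library's TMM factor, the scaling of the main edgeR fit. The ratio of means to the control was 1.09, 1.22 and 1.36, given without a test. The sum is not moved by how reads shared between these 5 genes were split. Reads shared with genes outside the 5, such as HLA-H, can still move it.

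B2M (ENSG00000166710), the light chain shared by all class I molecules, rose with resveratrol and with the combination. It had 3010 to 3435 normalized counts in the control (median 3235), 3170 to 3599 with EGCG (3387), 3541 to 3838 with resveratrol (3640) and 3475 to 4084 with the combination (3812). All resveratrol and all combination libraries lay above the control. B2M had a log2 fold change of 0.06 (SE 0.037, edgeR adjusted p = 0.603) with EGCG, 0.18 (SE 0.037, 6.86e-05) with resveratrol and 0.24 (SE 0.037, 9.71e-07) with the combination. The FPKM ratio of HLA-E to B2M had medians of 0.715 in the control, 0.716 under EGCG, 0.745 under resveratrol and 0.792 under the combination.

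TAP1 and TAPBP act in the loading of peptides in the endoplasmic reticulum, where TAP1 pumps peptides in and tapasin edits what is bound. TAP1 (ENSG00000168394) had 375 to 435 normalized counts in the control (median 411), 412 to 479.6 with EGCG (444), 430.3 to 491 with resveratrol (455) and 483 to 561 with the combination (513). The control and resveratrol libraries of TAP1 overlapped at their edges, and the combination stood above the control throughout. Its log2 fold change was 0.11 (SE 0.049, edgeR adjusted p = 0.371) with EGCG, 0.17 (SE 0.048, 0.00337) with resveratrol and 0.33 (SE 0.048, 3.81e-07) with the combination. TAPBP (ENSG00000231925, chromosome 6, 33299694 to 33314284, minus strand) had 610.1 to 698.5 normalized counts in the control (median 658), 679.6 to 739 with EGCG (717), 733 to 815 with resveratrol (804) and 860 to 939 with the combination (903). The combination libraries of TAPBP stood above those of every other group, and the resveratrol libraries stood above the control. Its log2 fold change was 0.13 (SE 0.039, edgeR adjusted p = 0.108) with EGCG, 0.27 (SE 0.038, 2.99e-07) with resveratrol and 0.47 (SE 0.038, 5.45e-13) with the combination.

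PSMB9 (ENSG00000240065), the immunoproteasome subunit that takes the place of PSMB6, had the largest log2 fold change of the 9 genes with both resveratrol and the combination. Its normalized counts were 79.4 to 104 in the control (median 92.6), 94.2 to 132 with EGCG (105), 107 to 143 with resveratrol (133) and 132 to 163 with the combination (151). The resveratrol and combination libraries were all above the control, and the combination overlapped resveratrol. PSMB9 had a log2 fold change of 0.23 (SE 0.094, edgeR adjusted p = 0.32) with EGCG, 0.51 (SE 0.090, 1.16e-05) with resveratrol and 0.70 (SE 0.089, 2.49e-08) with the combination, a fold of 1.62. The FPKM ratio of PSMB9 to PSMB6 had medians of 0.0194 in the control, 0.0223 under EGCG, 0.0293 under resveratrol and 0.0332 under the combination. That of PSMB8 to PSMB5, the matching pair for another catalytic site, had medians of 0.0610, 0.0666, 0.0651 and 0.0662 in the same order. These ratios are values without a test.

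NLRC5 (ENSG00000140853), the coactivator, had the fewest counts and the widest errors. It had 21.2 to 34.1 normalized counts in the control (median 31.5), 19.4 to 40.9 with EGCG (28.7), 31.4 to 48.5 with resveratrol (39.7) and 27.4 to 56.1 with the combination (39.3). All 4 groups overlapped. The log2 fold change of NLRC5 was -0.05 (SE 0.18, edgeR adjusted p = 0.968) with EGCG, 0.41 (SE 0.17, 0.0366) with resveratrol and 0.43 (SE 0.17, 0.0323) with the combination. Control replicate 1, at 21.2, was the lowest control library, and without it the adjusted p was 0.112 with resveratrol and 0.0984, at an unadjusted p of 0.0587, with the combination. The call was also lost with resveratrol without resveratrol replicate 4 (adjusted p = 0.092, unadjusted 0.0508), and with the combination without combination replicate 3 (0.163). In the other 8 genes the medians stood in the order control, EGCG, resveratrol, combination, although neighbouring groups overlapped at many of these steps.

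**Figure D2:**
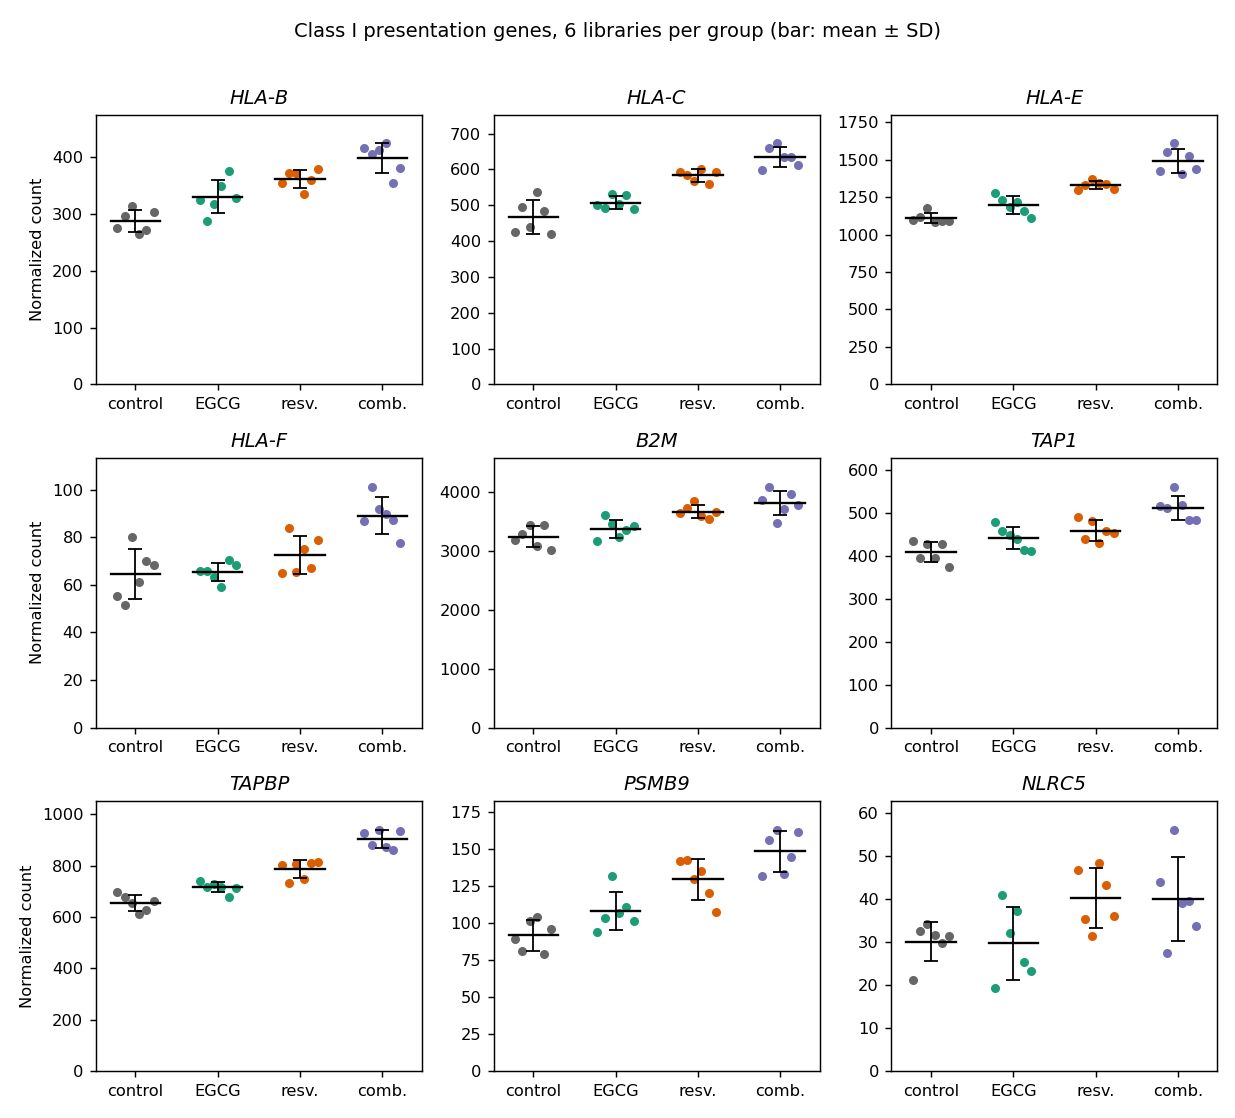
Normalized counts of the 9 genes in all 24 libraries, with 1 point per library and bars for the mean ± SD of 6 libraries; each vertical axis starts at 0, and resv. and comb. stand for resveratrol and the combination. The combination points of TAPBP, 860 to 939, lie above those of every other group, while the 4 groups of NLRC5 overlap.

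Counted over the 9 genes, EGCG alone called 1 gene, HLA-B, higher and none lower. In this comparison 0.905% of all tested genes were called higher, 0.859% lower and 1.76% in either direction. A call needed a Benjamini-Hochberg adjusted p under 0.1 and an unadjusted p under 0.05 in edgeR's quasi-likelihood test. The log2 fold change was above 0 for 8 of the 9, as for 50.5% of all tested genes, and 6 of the 9 had an unadjusted p under 0.05 in the upward direction, against 5.21% of all tested genes. The groups overlapped for all 9, and did not for 0.827% of tested genes that were higher. The median log2 fold change of the 9 was 0.11, beside 0.0009 over all tested genes. The HLA-B call was lost without control replicate 1, 4 or 5 and without EGCG replicate 1, 4, 5 or 6 (edgeR adjusted p of 0.101 to 0.236). Other genes gained a call when a library was left out: TAPBP without control replicate 1, EGCG replicate 5, resveratrol replicate 2 or combination replicate 3, HLA-C without control replicate 4, and HLA-E without EGCG replicate 6 or combination replicate 3 (adjusted p of 0.0624 to 0.0955). HLA-B had a log2 fold change of 0.08 in replicates 1 to 3 and 0.33 in replicates 4 to 6.

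With resveratrol, 8 of the 9 genes were called higher, all but HLA-F, and none lower. The background was 28.9% of tested genes called higher, 28% lower and 56.9% in either direction. In 6 of the 9, HLA-B, HLA-C, HLA-E, B2M, TAPBP and PSMB9, every resveratrol library exceeded every control library, as in 15.3% of tested genes. The median log2 fold change of the 9 was 0.27, beside 0.0037 over all tested genes. Scaled by library size alone, the share of higher among called genes moved from 50.7% to 68.3%, and 9 of the 9 genes were called higher. Within replicates 1 to 3 and within replicates 4 to 6, each against the control of the same set, all 9 log2 fold changes were above 0, from 0.17 to 0.61 and from 0.14 to 0.46.

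With the combination, 9 of the 9 genes were called higher, against 29.9% of tested genes called higher and 59.8% in either direction. The libraries of the combination and the control did not overlap for 7 of the 9, all but HLA-F and NLRC5, against 15.6% of tested genes. The median log2 fold change of the 9 was 0.45, beside -0.0015 over all tested genes. With library size alone as the scaling, the share of higher among called genes was 64.6% in place of 50.04%. Within replicates 1 to 3 the 9 values ran from 0.21 for B2M to 0.74 for PSMB9, and within replicates 4 to 6 from 0.27 for B2M to 0.66 for PSMB9, with NLRC5 at 0.57 and 0.27 in the 2 sets and not called in the second. Since both comparisons share the control libraries, their values are given side by side and are not independent.

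**Figure D3:**
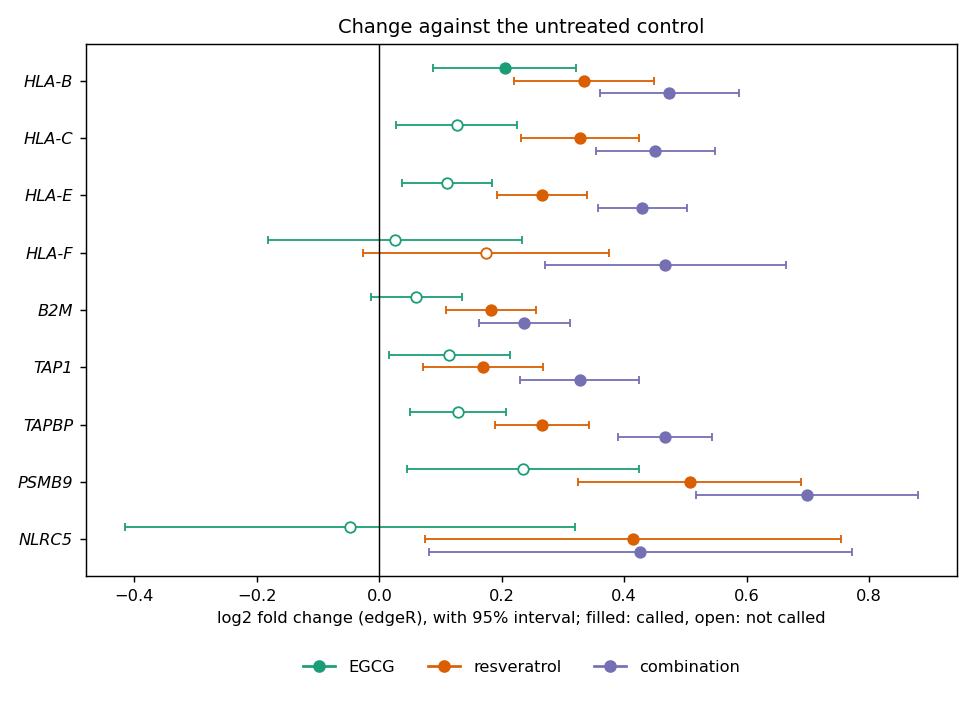
Log2 fold change of each gene against the untreated control (horizontal axis, edgeR) for EGCG, resveratrol and the combination, with 95% intervals from 6 libraries per group; filled points passed the limits and open points did not. The points of the combination lie furthest to the right for each gene, from 0.24 for B2M to 0.70 for PSMB9.

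The combination was then compared with resveratrol alone, which asks what EGCG added in the presence of resveratrol. HLA-E, HLA-F, TAP1 and TAPBP were called higher, 4 of the 9, against 4.01% of tested genes called higher and 7.86% in either direction. The log2 fold change was 0.16 (SE 0.035, edgeR adjusted p = 0.00328) for HLA-E and 0.20 (SE 0.037, 0.000511) for TAPBP, and in both every combination library exceeded every resveratrol library, as in 1.78% of tested genes. It was 0.29 (SE 0.094, 0.0622) for HLA-F and 0.16 (SE 0.047, 0.041) for TAP1, whose libraries overlapped. HLA-F lost its call without resveratrol replicate 1, 3 or 5 or combination replicate 2 or 3, and TAP1 without resveratrol replicate 2 or combination replicate 3, with adjusted p of 0.116 to 0.146 and of 0.108 and 0.127. HLA-C gained a call without control replicate 4 or combination replicate 1 (0.0844 and 0.0875), and HLA-B without combination replicate 5 (0.0725). The other 5 genes were not called, with log2 fold changes of 0.14 for HLA-B, 0.12 for HLA-C, 0.05 for B2M, 0.19 for PSMB9 and 0.01 for NLRC5. Their 95% intervals were 0.03 to 0.25, 0.03 to 0.22, -0.02 to 0.13, 0.02 to 0.36 and -0.31 to 0.33 in that order. The median of the 9 was 0.16, beside -0.0011 over all tested genes. In replicates 1 to 3 alone 2 of the 9 were called (HLA-E and TAPBP) and in replicates 4 to 6 alone 1 (TAPBP).

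Against EGCG alone, the combination was higher in 9 of the 9 genes, against 28.7% of tested genes called higher, 29.1% lower and 57.8% in either direction. Log2 fold changes ran from 0.18 for B2M to 0.47 for NLRC5. The 6 libraries of each group did not overlap for HLA-C, HLA-E, HLA-F, TAP1 and TAPBP, 5 of the 9 against 13.5% of tested genes. NLRC5 lost this call without combination replicate 3 (edgeR adjusted p = 0.109), and it had 0.53 and 0.41 in replicates 1 to 3 and 4 to 6, called in neither. HLA-B had 0.40 in replicates 1 to 3 and 0.13 in replicates 4 to 6, called in the first set alone. With library size alone, the share of higher among called genes was 63.8% in place of 49.6%.

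The interaction term asks whether the log2 effect of EGCG differed between cells with and without resveratrol. In edgeR 0 of the 9 genes were called, against 0.265% of tested genes in either direction and 0.207% higher. None of the 9 had an unadjusted p under 0.05, and DESeq2 called 0 of them. The term was 0.27 for HLA-F (95% interval -0.01 to 0.55), 0.07 for TAPBP (-0.04 to 0.18), 0.05 for HLA-E (-0.05 to 0.16), 0.04 for TAP1 (-0.09 to 0.18), 0.06 for NLRC5 (-0.43 to 0.55), -0.003 for HLA-C (-0.14 to 0.13), -0.01 for B2M (-0.11 to 0.10), -0.04 for PSMB9 (-0.30 to 0.21) and -0.07 for HLA-B (-0.23 to 0.09). The narrowest of these intervals were those of HLA-E, B2M and TAPBP. Over all genes called for the interaction, 78.0% were higher, and 66.7% with library size alone.

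**Figure D4:**
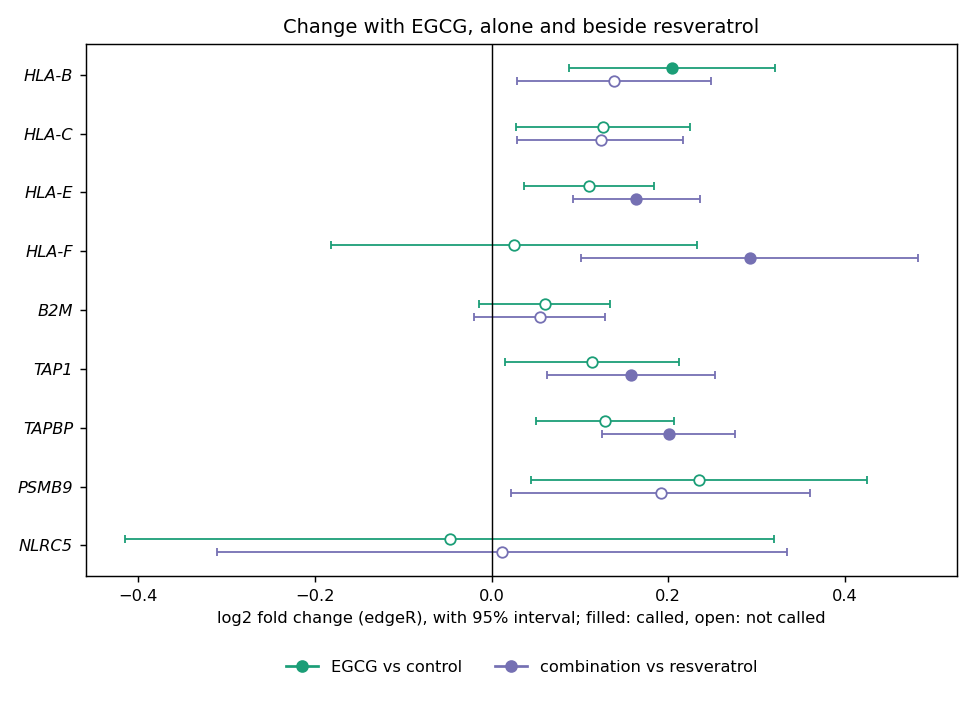
Log2 fold change with EGCG alone against the control and with the combination against resveratrol (horizontal axis, edgeR), with 95% intervals from 6 libraries per group; filled points passed the limits. TAPBP has 0.13 and 0.20 and HLA-F 0.03 and 0.29, and the intervals of the 2 comparisons overlap for each gene.

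The rest of the pathway was described by 8 lists of 64 genes by role, of which 63 were tested; CD1D did not pass the filter. EGCG alone called 1 of them higher, the NF-κB subunit NFKB2 (log2 fold change 0.21, SE 0.053, edgeR adjusted p = 0.0319), and 0 lower, while 7 were higher and 1 lower at an unadjusted p under 0.05; DESeq2 also called 1. The background was 0.905% of tested genes called higher, 0.859% lower, and 5.21% higher at that unadjusted p. Resveratrol called 29 of 63 higher and 17 lower, and the combination 33 higher and 13 lower, against 28.9% and 29.9% of tested genes called higher and 28% and 29.9% lower. The combination against resveratrol called 12 higher and 0 lower, against 4.01% and 3.86% of tested genes. The interaction called 0 in edgeR, where 0.265% of tested genes were called, and 0 in DESeq2. At an unadjusted p under 0.05 in edgeR it had 4 higher and 1 lower, and the share of all tested genes at that p was not computed. The median log2 fold change over the 63 was 0.10 with resveratrol and 0.12 with the combination, below the 0.27 and 0.45 of the 9 genes.

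Of 4 further heavy chains described and tested, 3 rose with resveratrol and 3 with the combination, where 28.9% and 29.9% of tested genes were called higher. MR1, which presents vitamin B metabolites to MAIT cells, had 196 ± 17.2 normalized counts in the control, 435 ± 19.6 with resveratrol and 437 ± 15.6 with the combination (SD, n = 6), a log2 fold change of 1.15 and 1.16. FCGRT, the neonatal Fc receptor heavy chain, had log2 fold changes of 0.61 and 0.72, and HFE, a regulator of iron uptake, 0.34 and 0.32. HLA-G was not called in either (0.11 and 0.40). Of the 8 stress ligands related to class I, which the activating receptor NKG2D reads, 5 rose with resveratrol and 7 with the combination, against the same 28.9% and 29.9%, with ULBP1 at 0.87 and 1.10, RAET1L at 0.69 and 0.94, and RAET1G at 0.54 and 0.84. RAET1E, with 5 to 15 raw counts in a library, was called with the combination (0.84, SE 0.23). It had 0.45 (SE 0.24) with resveratrol, not called.

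The genes of cutting and loading had calls in both directions. Of 11 genes of peptide production, 3 rose and 5 fell with resveratrol, and 3 rose and 5 fell with the combination. The background, here and for the lists that follow, was 28.9% of tested genes higher and 28% lower with resveratrol, and 29.9% higher and 29.9% lower with the combination, so 3 of 11 is near it. The immunoproteasome subunit PSMB8 rose by a log2 of 0.17 and 0.23, the activator subunit PSME2 by 0.13 and 0.21, and the peptidase TPP2 had -0.14 and -0.26. PSMB10, the third immunoproteasome catalytic subunit, was not called (-0.21 and 0.09). Of the constitutive catalytic subunits PSMB5 rose and PSMB6 and PSMB7 fell with both treatments, by 0.14 or less. Among 7 genes of transport, trimming and loading, the trimming peptidase ERAP2 (0.57 and 0.77) and the tapasin homologue TAPBPL (0.51 and 0.52) rose with both, as did ERAP1 (0.17 and 0.13). TAP2, the partner subunit of TAP1, had -0.07 and 0.02 and was not called, and the FPKM ratio of TAP1 to TAP2 had medians of 1.37 in the control, 1.68 under resveratrol and 1.71 under the combination. The chaperones CALR, CANX and PDIA3 had -0.09, -0.12 and -0.08 with resveratrol, all called lower, and CANX alone of the 3 was called with the combination (-0.10).

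Of 16 transcription factors of class I genes, 7 rose and 5 fell with resveratrol, and 8 rose and 4 fell with the combination, against the same background of 28.9% higher and 28% lower, and 29.9% in each direction. The NF-κB subunits RELB and NFKB2 rose by log2 values of 0.57 and 0.54 under resveratrol and 0.93 and 0.91 under the combination. Against resveratrol alone the combination had 0.36 for RELB and 0.37 for NFKB2 (edgeR adjusted p = 0.00024 and 1.83e-06), with no overlap of libraries. The other NF-κB subunits did not follow: NFKB1 was called lower with resveratrol (-0.08, edgeR adjusted p = 0.0473) and not with the combination (-0.05), and RELA was not called with resveratrol (0.03) and rose with the combination (0.11). The interferon response factors IRF9, STAT2 and IRF1 had 0.73, 0.69 and 0.35 under resveratrol and 0.90, 0.83 and 0.64 under the combination, all called. IRF9 had only 5 to 28 raw counts in a library, with an SE of 0.22 in both comparisons. RFX5, which binds class I promoters, had 0.31 and 0.36, while RFXAP and RFXANK were called with neither treatment. Called lower with both treatments were ATF1 (-0.32 and -0.37) and the NF-Y genes NFYA (-0.23 and -0.21), NFYB (-0.21 and -0.21) and NFYC (-0.15 and -0.13). The list of 9 interferon receptors and kinases also held SOCS1 and SOCS3, which are neither. Of the 9, 5 rose with each of the 2 treatments, among them IFNGR1 (0.27 and 0.35) and SOCS1 (0.71 and 0.74). SOCS3 was called lower with resveratrol (-0.26, edgeR adjusted p = 0.0345) and not with the combination (-0.12), where none of the 9 was lower. In the list of 5 genes for removal of class I from the surface, 2 rose and 1 fell with resveratrol, and 3 rose and 1 fell with the combination. SUSD6 had 0.75 and 0.96 and TMEM127 0.14 and 0.21, while the ubiquitin ligase WWP2 had -0.37 and -0.39, all called. SPPL3 had 0.05 with resveratrol, not called, and 0.12 with the combination, called.

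**Figure D5:**
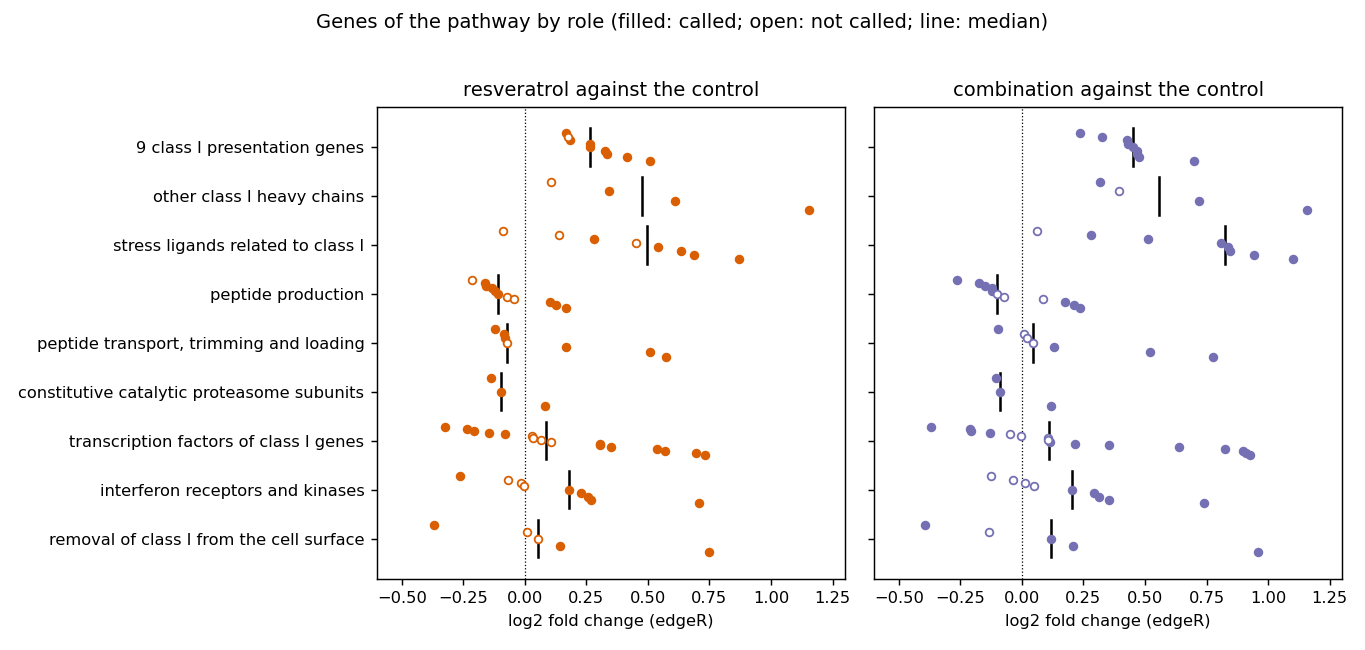
Log2 fold changes (horizontal axis, edgeR) of the 9 genes and of the 63 other tested pathway genes by role, with resveratrol and with the combination against the control; each point is a gene, filled where it passed the limits, and the line marks the median of its list. The 9 genes all lie above 0 in both panels, whereas genes of peptide production and of loading lie on both sides of it.

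Position on chromosome 6 was described in the same way. Between 29722775 and 33314284, the span of the 7 chromosome 6 members, 92 other genes were tested. With resveratrol 24 of them (26.1%) were called higher and 25 lower, against 28.9% and 28% of all tested genes, and their median log2 fold change was -0.05. With the combination 32 were higher and 27 lower, with a median of 0.03, and the combination against resveratrol had 7 higher (7.61%) and 1 lower, against 4.01% and 3.86%. The 7 members in the span all rose with the combination, and the neighbours did so in 34.8% of cases, near the 29.9% of all tested genes. Only the members were left out, so the 92 also hold other genes of the pathway, such as PSMB8. The part of position was not tested.

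Across the 24 libraries the 9 genes went up and down together, which the 4 groups themselves can produce. Pearson's r of log2 CPM over 36 pairs of genes ran from 0.354 to 0.917, with a median of 0.720 and the highest value for HLA-E with TAPBP. After the mean of each group and set of replicates was removed, the 36 values ran from -0.540 to 0.362 with a median of -0.0189. The libraries share depth and treatment, and no p is given. The genes outside the 9 whose levels followed their mean standardized level most closely over the 24 libraries were NFKB2 (r = 0.973), TRIB3 (0.973), ALDOC (0.967), CXCL8 (0.964) and TSC22D3 (0.964).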

How the data were processed

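RNA-seq of 686Tu cells was analysed in 4 groups of 6 libraries (untreated control, EGCG, resveratrol, combination). Per the methods and the submitters' processing notes, the authors extracted RNA with RNeasy, made TruSeq stranded mRNA libraries, converted reads with bcl2fastq 2.17.1.14, checked them with FastQC 0.11.5, trimmed them with Trimmomatic 0.36 and aligned them to GRCh38 with HISAT2 2.0.4 and SAMtools 1.3.1. The counting program, annotation release and strand setting are not given in the sources used here. The authors deposited raw counts per gene. A deposited signal table of normalized counts equals the raw counts over 1 factor per library, as a check of 24 of 24 libraries found. The deposited FPKM values are these over 1 constant per gene, for all 33693 genes with a count.

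Of 60617 genes, 15476 passed edgeR's filterByExpr. The model of the 24 libraries' raw counts was edgeR 4.0.16 under R 4.3.3 (TMM, 1 mean per group, quasi-likelihood test). Calls needed p under 0.05 and, after Benjamini-Hochberg adjustment, under 0.1, the limits of the study's methods. Intervals are at 95%. DESeq2 1.42.0 was an alternative, beside other scalings, filters, samples, a replicate block and libraries left out. Both fits were tested on simulated data. Group values are of the deposited normalized counts, and CPM of correlations had a prior count of 2. With totals of 7034872 to 11735574 counts, counting error is largest for NLRC5.

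Members and gene lists were chosen with earlier results of these data known. Named were all 9 members, up to 4 called genes per list with the largest change with the combination, a fixed set (TAP2, PSMB8, PSMB10, ERAP1, ERAP2, CALR, CANX, PDIA3, IRF1, RFX5), and the 5 genes most like the members. CD1D, HLA-G, IRF7, SOCS3, NFKB1, RELA, COL1A1, COL1A2, RFXAP, RFXANK, ATF1, NFYA, NFYB, NFYC, KRT5, KRT14, KRT6A, KRT17, CDH1 and DSG3 were named after their values were seen. The results of 2 genes under this rule are not reported here, and the lists and the heavy chain sum were computed without them. Promoter letters came from RefSeq GRCh38.p14 and gene positions from GENCODE v44.

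Replicate numbers were not treated as pairs.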

Additional observations from a re-analysis of the deposited data

Results flagged for a closer look

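In 36 sets of 6 libraries (9 genes in 4 groups), 2 held a library that stood apart from the others by more than Dixon's 95% critical value for the gap over the range. By chance about 1 in 20 sets would hold such a library, and 2 of 36 is near that. HLA-E in control replicate 3 had 1176 normalized counts, with the nearest control library at 1115 and the lowest at 1087, a gap of 0.686 of the range. NLRC5 in control replicate 1 had 21.2 normalized counts, with the nearest at 29.9 and the highest at 34.1, a gap of 0.672 of the range. Without this library the NLRC5 calls with resveratrol and with the combination were lost, as given above.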

How the results depend on the processing

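For EGCG against the control, 1 of the 9 genes was called as reported. The count was 2 with library size alone, 2 with at least 10 counts in every library, 2 with replicates 1 to 3 against 4 to 6 as a term and 3 with the replicate block. It was 0 with an adjusted p under 0.05, 0 with only the groups compared and 0 in replicates 1 to 3 alone, and 0 to 3 with each library left out. The other pathway genes called with EGCG numbered 1, and were 0 in replicates 4 to 6 alone and 0 to 1 with a library left out. For the combination against resveratrol, the 4 genes called became 2 in replicates 1 to 3 alone, 1 in replicates 4 to 6 alone and 2 to 5 with a library left out. The 12 other pathway genes became 6 in replicates 1 to 3 and 5 in replicates 4 to 6. With library size alone the summed heavy chain reads were 218 CPM in the control, 238 under EGCG and 282 under resveratrol, in place of 225, 245 and 274. In the remaining comparisons 7 to 9 of the 9 genes were called under each alternative run, and the interaction called 0 of 9. The cause of these changes was not tested, beyond the smaller number of libraries in the sets of replicates.

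Changes of sign concerned values that were not called. Those of NLRC5 with EGCG were 0.044 in replicates 1 to 3 and -0.16 to 0.061 with a library left out, and of HLA-F with EGCG -0.029 to 0.10. NLRC5 for the combination against resveratrol had -0.20 in replicates 4 to 6 and -0.13 to 0.10 with a library left out. The interaction term changed sign for HLA-B in replicates 1 to 3 (0.087), and in replicates 4 to 6 for HLA-C (0.0135), B2M (0.0126), PSMB9 (0.078) and NLRC5 (-0.052). With a library left out it ran from -0.047 to 0.024 for HLA-C, -0.027 to 0.0185 for B2M, -0.089 to 0.0235 for PSMB9 and -0.082 to 0.17 for NLRC5. A fit of only the groups compared was not run for the interaction, which uses all 4.

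No pairing of libraries by replicate number was established. Over 36 pairs of libraries with the same number the correlation of deviations ran from -0.0111 to 0.131, with a median of 0.0488 and 2 over 0.1. The median was 0.0276 for other numbers of the same set of replicates and -0.0406 between the sets. Of 24 libraries, 14 correlated best with their own number, a hint from the data that the labels do not explain. The number expected without pairing was not computed. Under the replicate block 3, 8, 9, 5 and 9 of the 9 genes were called for EGCG, resveratrol, the combination, the combination against resveratrol and against EGCG. Of the 9 genes, depth limits NLRC5 most, with 19 to 64 raw counts in a library.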

Other observations

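Of 15 genes that interferon is known to induce, 14 were tested, and 14 of the 14 were called higher both with resveratrol (median log2 fold change 0.96) and with the combination (0.92). In these comparisons 28.9% and 29.9% of all tested genes were called higher. EGCG alone called 0 of the 14 in edgeR, with a median of -0.07, 0 higher and 1 lower at an unadjusted p under 0.05, where 0.905% of tested genes were called higher and 5.21% were higher at that p, and DESeq2 was not run for this list. The combination against resveratrol called 1 of the 14 higher, IRF7 (0.24, edgeR adjusted p = 0.0953, named after its value was seen), against 4.01% of tested genes, with a median of 0.08, beside 4 of the 9 class I presentation genes with a median of 0.16. The lists were not compared by a test, and the comparisons share libraries.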
